A study of Mus musculus with 12 samples.

Results

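Ribosome biogenesis and nucleolar factors are described here as 52 genes, which encode assembly factors of the ribosome and were found by their symbols among the 14323 genes of the count table. All 52 had a row, and all 52 passed the filter on low counts in each comparison. The cells were naïve CD8+ T cells, gated as CD62L+ and CD44- from spleen, of 3 wild type mice. Wells of 100000 cells were kept for 6 h on immobilized antibodies. The 4 groups were unstimulated with isotype control, unstimulated with anti-LAIR-1 (clone 2C7, 2.5 µg/ml), anti-CD3 (clone 145-2C11, 2.5 µg/ml) with isotype control, and anti-CD3 with anti-LAIR-1. The labels of the unstimulated groups hold iso where those of the stimulated groups hold aCD3. Which antibody stood there in place of anti-CD3 was not given in the sources used here. Each group held 1 library from each of the same 3 mice, so that n = 3 in every group. All groups share genotype, sort and culture time, and each library stands for 1 well of cells. The study's methods give adult C57BL/6N mice for its experiments in general, and no age for these 3 animals. LAIR-1 is an inhibitory receptor for collagen, and 2C7 is an antibody that triggers it. Anti-CD3 triggers the T cell receptor complex.

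Ribosomes are assembled in the nucleolus. RNA polymerase I transcribes a long precursor RNA, small nucleolar ribonucleoproteins (snoRNPs) guide its methylation (box C/D) and pseudouridylation (box H/ACA), and a large set of assembly factors folds, cuts and exports the precursors of the small (40S) and large (60S) subunits. A resting T cell is small and makes little protein, and antigen receptor signalling is known to start growth and ribosome production before the first division. The 52 members were grouped by role. The nucleolar organisers and chaperones were Ncl, Npm1, Npm3, Nolc1, Tcof1, Mybbp1a and Lyar. The box C/D core was Fbl, Nop56 and Nop58, and the box H/ACA core was Nop10, Nhp2, Gar1 and Dkc1. The 19 factors of the 40S subunit were Nop14, Noc4l, Wdr43, Wdr75, Utp20, Utp18, Utp15, Rcl1, Bms1, Heatr1, Imp3, Imp4, Tsr1, Rrp12, Nob1, Ltv1, Pno1, Rrp9 and Nat10. The 19 factors of the 60S subunit were Bop1, Pes1, Wdr12, Noc2l, Noc3l, Nop2, Nop16, Wdr74, Rrp1b, Rrs1, Gnl2, Gnl3, Gtpbp4, Nip7, Mrto4, Ebna1bp2, Ftsj3, Nle1 and Urb2.

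The members lie on 18 chromosomes. Promoter windows of 300 bases, from 250 before to 50 after the annotated start (RefSeq, GRCm38.p6), were found for 45 of the 52, in 49 windows. The E-box CACGTG, the sequence read by Myc and other basic helix-loop-helix factors, was present on either strand in 22.4% of the members' windows. It was in 7.84% of the windows of all protein-coding genes, and in 17.4% of those of the other pathway genes listed below. In 8 of 49 member windows (16.3%) the motif lay after the start, at positions 3 to 41, against 5.81% of the windows of the other pathway genes and 1.11% of all windows. CACGCG was in 24.5% of the members' windows against 33.7% of those of the other pathway genes and 12.1% of all windows. TCTCGCGA was in 6.12%, against 4.65% and 1.41%. No match of 1 motif overlapped a match of another. A match is a description of the letters, and no binding was measured. The stretches around the 11 E-boxes are shown because the choice of members did not use this feature. They belong to 11 of the 45 members with a window, and the other members with a window lack the motif there. The motif is in capitals, and the position counts from the start of the gene:

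Imp4 (40S; chr1:34439696-34439725, + strand, position -121): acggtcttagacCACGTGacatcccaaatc
Nop2 (60S; chr6:125131811-125131840, + strand, position -60): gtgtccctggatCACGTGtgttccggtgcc
Utp18 (40S; chr11:93885769-93885798, - strand, position -20): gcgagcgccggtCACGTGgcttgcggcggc
Pes1 (60S; chr11:3963965-3963994, + strand, position 3): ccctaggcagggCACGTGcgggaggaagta
Wdr43 (40S; chr17:71616220-71616249, + strand, position 18): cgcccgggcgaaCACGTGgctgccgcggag
Nle1 (60S; chr11:82908355-82908384, - strand, position 24): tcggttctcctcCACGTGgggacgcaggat
Tsr1 (40S; chr11:74898092-74898121, + strand, position 25): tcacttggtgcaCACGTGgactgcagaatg
Ltv1 (40S; chr10:13193092-13193121, - strand, position 29): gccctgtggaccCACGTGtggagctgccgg
Utp20 (40S; chr10:88826765-88826789, - strand, position 38): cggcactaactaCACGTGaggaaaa
Pno1 (40S; chr11:17211540-17211564, - strand, position 38): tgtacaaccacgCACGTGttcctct
Mybbp1a (nucleolar; chr11:72441355-72441376, + strand, position 41): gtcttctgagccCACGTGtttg

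A further feature, of a minority of the members, was snoRNA genes inside them. In the annotation, 7 of the 52 members (13.5%) held 21 snoRNA genes, against 1.66% of the protein-coding genes of the table. The share among the other pathway genes listed below was not computed. The hosts were Ncl, Nop56, Nop58, Dkc1, Wdr43, Tsr1 and Gnl3. The counts come from the 3′ ends of polyadenylated RNA and do not measure the snoRNAs.

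Library totals ranged from 1781218 to 7725545 counts and differed by group, from 1781218 to 2957929 in unstimulated cells with isotype, 3547294 to 3589194 in unstimulated cells with anti-LAIR-1, 3478294 to 6555730 with anti-CD3 and isotype, and 4889990 to 7725545 with anti-CD3 and anti-LAIR-1. At these totals 3 counts correspond to 0.388 to 1.68 CPM (counts scaled to the library's size), and the lowest count of a member in a library was 10 (Urb2). Levels below are CPM after TMM scaling, which adjusts each library's total for its composition. All 10 markers of naive CD8 T cells were detected. Their summed level was 6075 to 6786 CPM in unstimulated isotype libraries and 1778 to 1906 CPM with anti-CD3 and isotype. The summed markers of B cells stayed at or under 18.4 CPM, of CD4 T cells at or under 11.3 CPM, of NK cells at or under 48.5 CPM and of myeloid cells at or under 64.5 CPM, while those of erythroid cells and platelets ranged from 0 to 173 CPM. Nearly all of the NK sum was Eomes, with group means from 26.8 to 43.6 CPM. Nearly all of the myeloid sum was Cst3, with group means from 34.2 to 54.7 CPM. Of the listed markers, 3 of 5 for NK cells and 7 of 10 for myeloid cells had a row. The part of other cell types in the results was not tested.

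Stimulation through CD3 raised every one of the 52 factors. In unstimulated cells with isotype the members together took 0.498% ± 0.0208 (SD, n = 3) of all counts, and with anti-CD3 and isotype 2.03% ± 0.0482. With anti-LAIR-1 the shares were 0.470% ± 0.0235 without anti-CD3 and 1.79% ± 0.00441 with it. In normalised levels, the members summed to 4775 ± 220 CPM and 4514 ± 238 CPM in the unstimulated groups and to 21185 ± 335 CPM and 18571 ± 70.0 CPM in the stimulated groups. The 3 stimulated isotype libraries (20835 to 21502 CPM) and the 3 stimulated anti-LAIR-1 libraries (18494 to 18630 CPM) did not overlap, and the latter mean was 12.3% lower. Leaving out Npm1, the member with the highest counts, gave 15578 ± 242 CPM with isotype and 13661 ± 9.11 CPM with anti-LAIR-1, a difference of 12.3%. Other shares of the libraries moved with stimulation. Mitochondrial genes took 17.6% to 20.9% of the counts in unstimulated and 11.5% to 13.2% in stimulated libraries. Rn45s, the ribosomal RNA precursor, took 0.312% to 0.697% and 0.211% to 0.341%. Because the counts come from polyadenylated RNA, they do not measure the amount of this precursor. With mitochondrial genes and Rn45s left out of the totals, all 52 members were still called higher with anti-CD3. In bulk samples a smaller number of responding cells and less RNA per cell cannot be told apart.

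**Figure D1:**
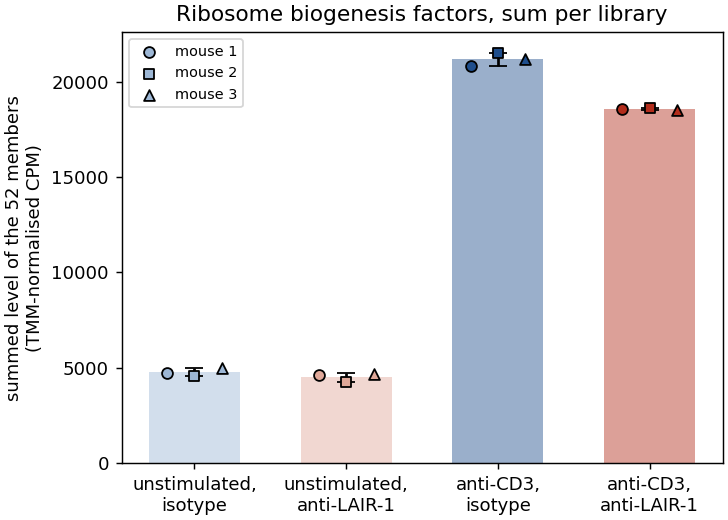
Summed level of the 52 members (TMM-normalised CPM) in each of the 12 libraries; bars are group means, error bars the SD (n = 3), and marker shapes the mice. The stimulated isotype libraries sit between 20835 and 21502 CPM, above the stimulated anti-LAIR-1 libraries between 18494 and 18630 CPM, and all stimulated libraries lie far above the unstimulated ones.

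With isotype control, 52 of 52 members were higher with anti-CD3 (edgeR's quasi-likelihood test, Benjamini-Hochberg adjusted p under the threshold of 0.05 over 8690 genes). Among all genes tested 35.3% were called higher and 36.1% lower. The members' median log2 fold change was 2.33, a 5.03-fold difference, against -0.03 over all genes tested, and the range ran from 1.2 (Tcof1) to 3.50 (Rrp1b). Of all genes tested, 4.00% had a log2 fold change at or above the members' median and 16.7% at or above that of the lowest member. The stimulated and unstimulated libraries did not overlap for 52 of 52 members, against 37.7% of all genes not overlapping in the higher direction. The smallest difference of any member within a single mouse was 1.08 on the log2 scale.

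Among the nucleolar organisers and chaperones, 7 of 7 rose, with log2 fold changes from 1.2 to 2.98. Npm1 encodes nucleophosmin, an abundant nucleolar chaperone, and lies at chr11:33152287-33163206 on the - strand (GENCODE M21, GRCm38). It was at 1347, 1303 and 1410 CPM in the unstimulated isotype libraries of mice 1, 2 and 3 and at 5381, 5646 and 5796 CPM with anti-CD3, a log2 fold change of 2.02 ± 0.08 (SE). Ncl, which encodes nucleolin, a nucleolar RNA-binding protein, rose from 373, 294 and 392 CPM to 1994, 2228 and 1851 CPM (2.49 ± 0.10). Both genes were several times higher in each stimulated library than in any unstimulated one. Nolc1 encodes a nucleolar phosphoprotein that binds snoRNPs, and it rose from 41.0, 32.6 and 34.5 CPM to 259, 316 and 267 CPM (2.92 ± 0.13). Lyar (chr5:38220470-38234306, + strand) encodes a nucleolar zinc-finger protein of growing cells and rose from 41.0, 38.3 and 42.0 CPM to 293, 373 and 314 CPM (2.98 ± 0.12). Tcof1 encodes treacle, a cofactor of RNA polymerase I, and had the smallest rise of the 52, from 625, 639 and 720 CPM to 1630, 1464 and 1554 CPM (1.20 ± 0.09). The rise of Tcof1 was still far larger than the spread between mice. Mybbp1a, a nucleolar Myb-binding protein, rose by 2.52 ± 0.10 and Npm3 by 1.90 ± 0.12.

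The snoRNP cores rose as well, 3 of 3 for box C/D and 4 of 4 for box H/ACA. Fbl encodes fibrillarin, the methyltransferase of box C/D particles, and went from 111, 106 and 93.7 CPM to 464, 519 and 518 CPM (log2 fold change 2.23 ± 0.10). Nop58, a scaffold of the same particle, went from 62.5, 53.4 and 75.4 CPM to 534, 523 and 523 CPM (3.03 ± 0.11), and its paralogue Nop56 rose by 2.44 ± 0.09. Of the H/ACA core, Dkc1, the pseudouridine synthase dyskerin, went from 40, 42.0 and 27.5 CPM to 210, 231 and 204 CPM (2.50 ± 0.13). Nhp2, an RNA-binding subunit, went from 117, 92.2 and 92.1 CPM to 552, 546 and 570 CPM (2.43 ± 0.11). Nop10, the smallest subunit, rose least of the 4, from 249, 273 and 270 CPM to 713, 624 and 791 CPM (1.40 ± 0.10), and Gar1 rose by 2.40 ± 0.12.

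All 19 factors of the 40S subunit rose, from 2.36-fold to 8.38-fold. Pno1, a partner of the nuclease Nob1 in late 40S maturation, was the highest, going from 40, 35.5 and 41.5 CPM to 346, 343 and 313 CPM (log2 fold change 3.07 ± 0.11). Rrp9, a protein of the U3 snoRNP, followed with 7.20-fold and the RNA acetyltransferase Nat10 with 6.03-fold. The lowest 3 were Nop14, the GTPase Bms1 and Imp3, which act in the early small subunit processome. Nop14 went from 124, 113 and 123 CPM to 368, 336 and 341 CPM (1.5 ± 0.10). Bms1 went from 19.5, 17.1 and 18.3 CPM to 51.6, 56.9 and 48.2 CPM (1.47 ± 0.16), and Imp3 from 58.8, 69.7 and 53.8 CPM to 137, 162 and 143 CPM (1.24 ± 0.12). Even for these low members, no stimulated library overlapped an unstimulated one. The t-UTP proteins, which bind the precursor first and also bear on its transcription, rose 5.70-fold (Wdr75), 5.34-fold (Wdr43), 4.02-fold (Heatr1) and 3.91-fold (Utp15). Other processome factors rose 5.58-fold (Noc4l, the partner of Nop14), 5.52-fold (Rcl1, the partner of Bms1), 5.06-fold (Utp20), 4.60-fold (Imp4) and 3.58-fold (Utp18). Factors of the later, cytoplasm-bound 40S particle rose 5.29-fold (Rrp12), 5.00-fold (Tsr1), 4.68-fold (Ltv1) and 3.40-fold (Nob1). Early and late factors thus covered overlapping ranges of fold change.

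All 19 factors of the 60S subunit rose too, from 3.54-fold to 11.3-fold. Rrp1b (chr17:32036100-32062865, + strand), a nucleolar protein of 60S assembly, had the largest change of the 52 members, from 12.9, 21.6 and 12.9 CPM to 171, 208 and 172 CPM (log2 fold change 3.50 ± 0.16). Its exons overlap those of Hsf2bp on the opposite strand. Such antisense overlaps were annotated for 22 of the 52 members, among them Npm3, Nop56, Nhp2, Dkc1, Gnl3 and Gtpbp4. Whether counting used the strand was not given in the sources used here, so that the counts of these members may hold reads of their antisense partners. Mrto4, a relative of the ribosomal stalk protein P0, went from 12.2, 22 and 27.5 CPM to 168, 165 and 179 CPM (3.08 ± 0.17). Annotated pseudogenes carry the names of Mrto4, Gtpbp4 and Npm3, and reads that fitted several places equally well had been discarded, so that these 3 values are less certain. Pseudogenes under other names were not searched for, and other members may be affected in the same way. Nop2, a methyltransferase of the large ribosomal RNA, went from 50.2, 48.9 and 54.4 CPM to 427, 412 and 470 CPM (3.06 ± 0.11). Gnl3, the GTPase nucleostemin, rose 7.60-fold and Nop16 rose 7.10-fold. The PeBoW complex, which processes the large subunit RNA, rose by 3.79-fold (Bop1), 3.83-fold (Pes1) and 4.67-fold (Wdr12). Rrs1, which brings the 5S ribonucleoprotein into the particle, rose 6.76-fold, Ebna1bp2 5.39-fold, Nip7 5.15-fold and Ftsj3 4.73-fold. The GTPases Gnl2 and Gtpbp4 rose 4.43-fold and 4.16-fold, Urb2 4.20-fold, Nle1 4.09-fold and Noc2l 3.80-fold. The smallest rises were those of Wdr74 (3.56-fold) and Noc3l (3.54-fold).

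**Figure D2:**
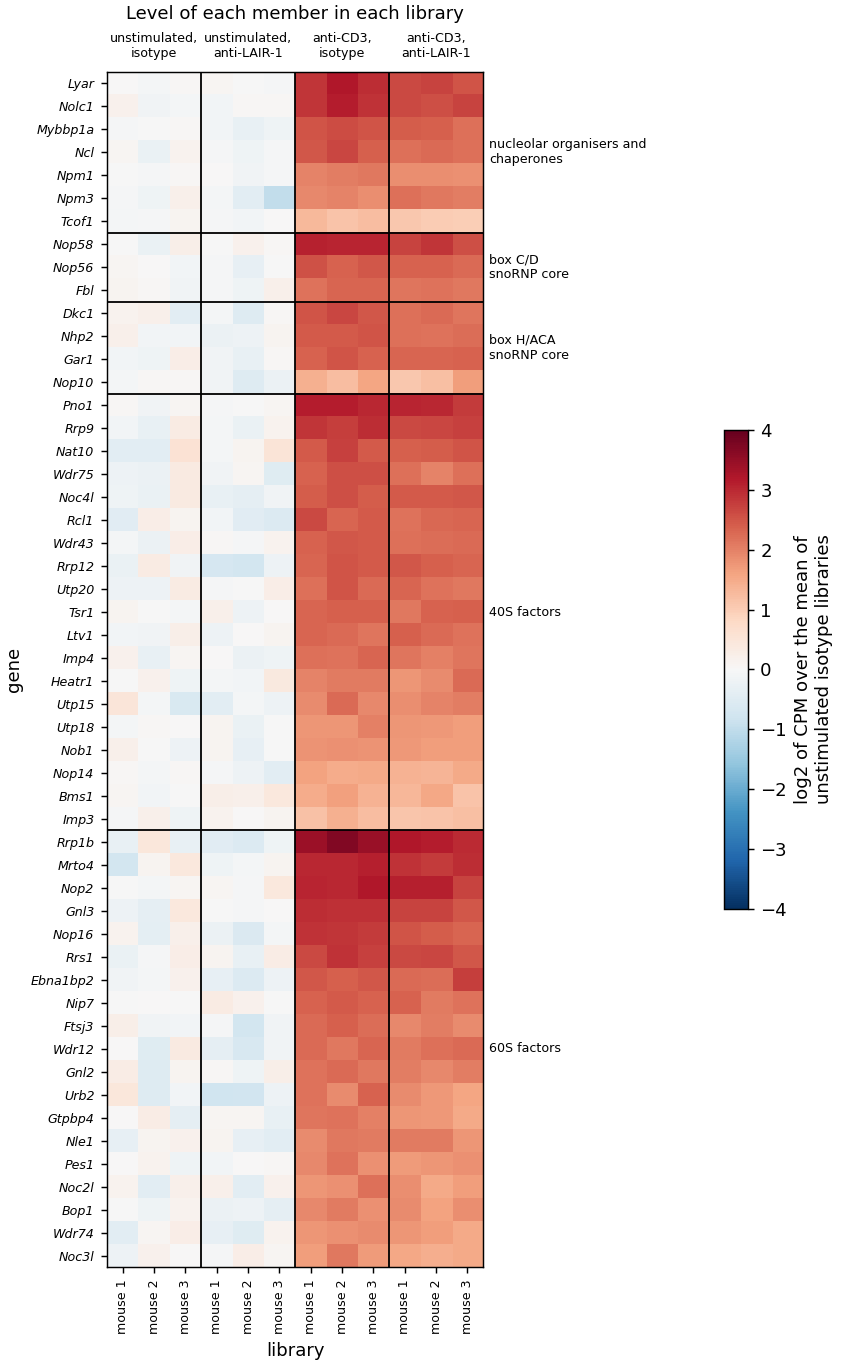
Level of each of the 52 members (rows, grouped by role and ordered by the response to anti-CD3) in each of the 12 libraries (columns), as the log2 of CPM over the mean of the unstimulated isotype libraries. The 6 unstimulated columns lie near 0, and the 6 stimulated columns are raised in every row, from Tcof1 and Imp3 at the low end to Rrp1b at the high end.

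In the presence of anti-LAIR-1, 52 of 52 members also rose with anti-CD3, where 36.4% of the 9000 genes tested were called higher and 36.3% lower. The median log2 fold change was 2.27, against -0.04 over all genes tested, and the values ran from 1.06 (Imp3) to 3.47 (Rrp1b). The libraries did not overlap for 52 of 52 members, where 37.6% of all genes did not overlap in the higher direction. Both responses come from separate libraries of the same 3 mice. Over the 52 members their log2 fold changes had a Pearson correlation of 0.89 and a Spearman correlation of 0.86, given as a description across genes, which are not independent. The response was larger with isotype for 34 members and larger with anti-LAIR-1 for 18. Rrp1b rose 11.3-fold with isotype and 11.1-fold with anti-LAIR-1, and Nop56 5.42-fold in both. Among those with differing values, Nop58 rose 8.14-fold and 6.19-fold, and Npm3 3.74-fold and 5.99-fold.

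**Figure D3:**
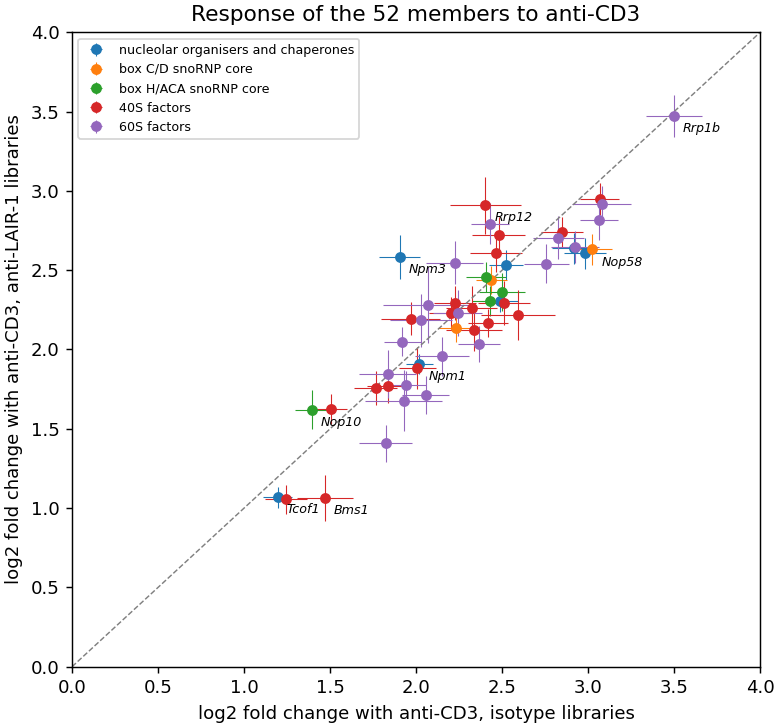
Log2 fold change of each of the 52 members with anti-CD3 in isotype libraries (x axis) and in anti-LAIR-1 libraries (y axis), with SE bars and colours by role; the dashed line marks equal responses. All points lie above 1 on both axes, 34 lie below the line, and Npm3 and Rrp12 stand above it.

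The comparison of anti-LAIR-1 with isotype in CD3-stimulated cells asks what triggering of the receptor does to the activated state. Of the 52 members, 12 were lower with anti-LAIR-1 and 0 were higher, and 40 did not pass the test. Over the 8800 genes tested, 1.86% were called lower and 3.9% higher (edgeR, adjusted p under 0.05). The members' median log2 fold change was -0.17 (1.13-fold lower), against 0.005 over all genes, and in mice 1, 2 and 3 it was -0.15, -0.21 and -0.20. The estimate was below 0 for 50 of 52 members, where 49.4% of all genes were below 0. Of the members, 26 (50%) had an unadjusted p under 0.05, against 18.8% of all genes. The anti-LAIR-1 and isotype libraries did not overlap for 29 members in the lower direction, against 11% of all genes. In the higher direction they did not overlap for 1 member, Npm3, against 13.0% of all genes. In all 3 mice 35 members were lower, where 19.5% of all genes were. The count of 12 was sensitive to 1 library: it was 6 without the isotype library of mouse 2, and it was 7 when all 12 libraries shared 1 fit. The stimulated isotype and anti-LAIR-1 groups also differed in total counts (medians of 4883760 and 6204054), and with all libraries thinned to the smallest total 9 members were lower. Markers of the cell state moved with the same comparison. The 10 naive markers summed to 1778 to 1906 CPM with isotype and 2262 to 2603 CPM with anti-LAIR-1, and the 6 early activation markers to 2857 to 3042 CPM and 2538 to 2897 CPM. Their part in the members' values was not tested.

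By role, the members lower with anti-LAIR-1 were 3 of 7 nucleolar organisers (Ncl, Nolc1 and Lyar), 1 of 3 of the box C/D core (Nop58), 2 of 4 of the box H/ACA core (Nhp2 and Dkc1), 1 of 19 factors of the 40S subunit (Wdr75) and 5 of 19 of the 60S subunit (Nop16, Rrp1b, Gnl3, Gtpbp4 and Ftsj3). Whether the roles differ was not tested. The summed level of each role was lower with anti-LAIR-1, by 13.7% for the nucleolar organisers, 12.4% for box C/D, 10.8% for box H/ACA, 8.52% for 40S factors and 12.8% for 60S factors.

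Nop16, a 60S assembly factor encoded at chr13:54584185-54590090 (- strand), showed the largest decrease, and its levels fell from 137, 134 and 128 CPM with isotype to 104, 98.2 and 92.4 CPM with anti-LAIR-1 in mice 1, 2 and 3 (log2 fold change -0.44 ± 0.08, adjusted p = 0.00363, edgeR). Rrp1b went from 171, 208 and 172 CPM to 144, 140 and 125 CPM (-0.44 ± 0.09, adjusted p = 0.00760). In both genes each anti-LAIR-1 library lay below each isotype library. Gtpbp4, a nucleolar GTPase of 60S assembly, went from 158, 164 and 145 CPM to 123, 120 and 104 CPM (-0.43 ± 0.09). Ftsj3, a methyltransferase of precursor RNA, went from 102, 111 and 101 CPM to 81.3, 87.0 and 78.7 CPM (-0.35 ± 0.09). Gnl3 went from 294, 290 and 288 CPM to 252, 247 and 214 CPM (-0.30 ± 0.08, adjusted p = 0.0275), the highest adjusted p among the 12. These 5 genes of the 60S list were still 3.28-fold to 11.1-fold above unstimulated cells when both wells carried anti-LAIR-1.

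Lyar fell from 293, 373 and 314 CPM to 250, 262 and 233 CPM (-0.40 ± 0.09, adjusted p = 0.00903, edgeR). Ncl fell from 1994, 2228 and 1851 CPM to 1619, 1713 and 1630 CPM (-0.30 ± 0.07), and Nolc1 from 259, 316 and 267 CPM to 225, 213 and 235 CPM (-0.33 ± 0.08). For Lyar, Ncl, Nolc1, Dkc1, Rrp1b, Gtpbp4 and Ftsj3 the isotype library of mouse 2 was the highest of the 6. Nop58 fell from 534, 523 and 523 CPM to 411, 464 and 379 CPM (-0.34 ± 0.08). Dkc1 fell from 210, 231 and 204 CPM to 169, 174 and 161 CPM (-0.36 ± 0.08), and Nhp2 from 552, 546 and 570 CPM to 465, 455 and 476 CPM (-0.27 ± 0.06). Wdr75, a subunit of the early 40S processome, fell from 108, 126 and 127 CPM to 97.7, 83.2 and 97.7 CPM (-0.39 ± 0.09). All 12 were lower in 3 of 3 mice, and none of the 12 had overlapping groups. The 12 were picked by a test on the same libraries, so this is not separate support. With each of the 6 libraries left out in turn, Nop16, Rrp1b, Gtpbp4 and Nop58 passed in 6 of 6 fits. Lyar and Dkc1 passed in 5 of 6 and Ncl in 4. Nolc1, Wdr75 and Ftsj3 passed in 3 of 6, Nhp2 in 2 and Gnl3 in 1.

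**Figure D4:**
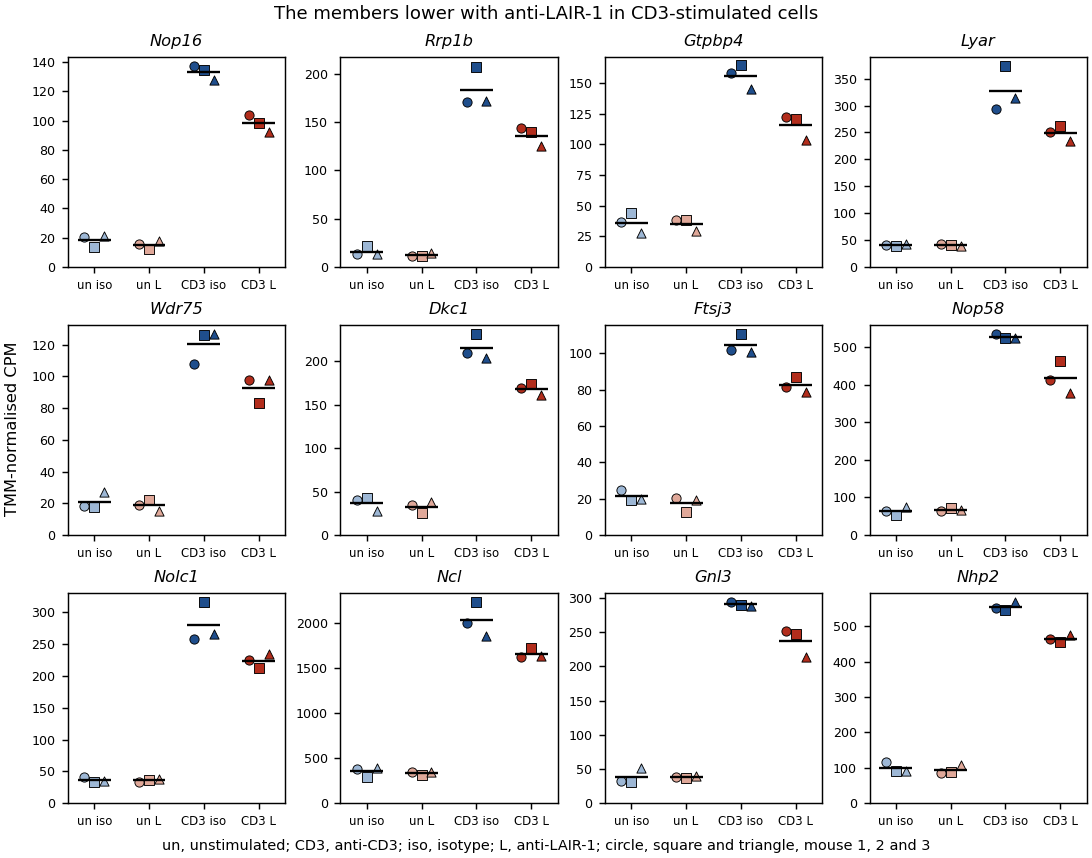
Level (TMM-normalised CPM, axes starting at 0) in every library of the 12 members that were lower in stimulated cells with anti-LAIR-1; horizontal lines are group means and marker shapes the mice. In each panel the 3 stimulated anti-LAIR-1 libraries lie below the 3 stimulated isotype libraries, and the unstimulated libraries lie far below both.

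The 40 members that did not pass had log2 fold changes from -0.41 to 0.19, and 14 of them had an unadjusted p under 0.05. Npm1 stood at the threshold, with 5381, 5646 and 5796 CPM with isotype and 4926, 4962 and 4843 CPM with anti-LAIR-1 (-0.20 ± 0.06, adjusted p = 0.0502, edgeR); DESeq2 gave an adjusted p of 0.00502. Tcof1 was at 1630, 1464 and 1554 CPM against 1386, 1351 and 1302 CPM (-0.21 ± 0.06, adjusted p = 0.0624, edgeR), and DESeq2 gave 0.0153. Fbl was at 464, 519 and 518 CPM against 461, 469 and 452 CPM (-0.13 ± 0.07), with overlapping groups. The error differed between members and did not follow the level alone. Nop10, with means of 710 CPM with isotype and 667 CPM with anti-LAIR-1, had an SE of 0.12, and Noc4l, at 115 and 114 CPM, had 0.08. Urb2, with a mean of 25.6 CPM with isotype and 19.3 CPM with anti-LAIR-1, had an estimate of -0.41 ± 0.16 and did not pass, while Lyar passed at -0.40 ± 0.09.

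Npm3, a small relative of nucleophosmin, was the member furthest in the other direction, with 205, 215 and 194 CPM with isotype and 250, 232 and 223 CPM with anti-LAIR-1 (0.19 ± 0.08, adjusted p = 0.168, edgeR). Ltv1, a 40S export factor, was at 221, 213 and 195 CPM against 234, 213 and 198 CPM (0.03 ± 0.08). Neither difference passed the test.

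**Figure D5:**
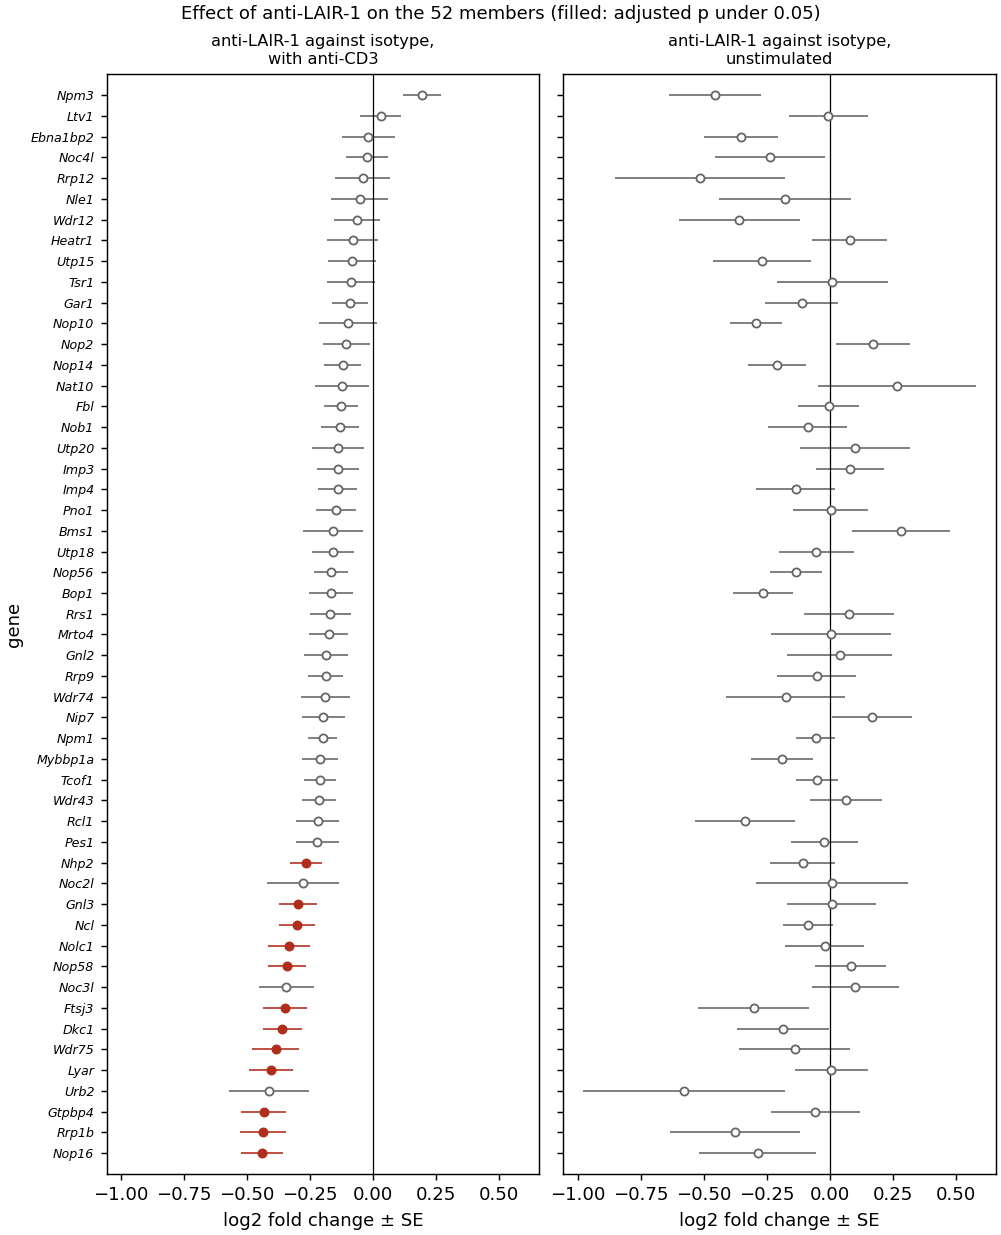
Log2 fold change with SE of each of the 52 members for anti-LAIR-1 against isotype in CD3-stimulated cells (left, genes ordered by this value) and in unstimulated cells (right); filled red points have an adjusted p under 0.05. On the left 50 of 52 points lie below 0 and 12 are filled; on the right 34 lie below 0, none is filled and the error bars are wider.

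In unstimulated cells 0 of 52 members differed between anti-LAIR-1 and isotype in edgeR, and 0 in DESeq2. Over the 8770 genes tested the share called in any direction was 0%. At an unadjusted p under 0.05 were 4 members (Npm3, Nop10, Bop1 and Ebna1bp2, named after their values were seen), where 4.38% of all genes reached it. The members' median log2 fold change was -0.06, against -0.002 over all genes, with 34 members below 0. The groups did not overlap for 5 of 52 members, near the 9.67% of all genes. The median SE was 0.16, against 0.08 in stimulated cells. The SE differed between members, from 0.08 for Npm1 to 0.40 for Urb2. Ncl was at 373, 294 and 392 CPM with isotype and 342, 316 and 341 CPM with anti-LAIR-1, and Lyar at 41.0, 38.3 and 42.0 CPM against 42.9, 40.3 and 38.8 CPM. For Nop16 the values were 20.2, 13.9 and 21.0 CPM against 15.5, 12.2 and 17.4 CPM. The groups overlapped for all 3 genes.

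The test of the difference itself, the interaction over all 12 libraries, passed for 0 of 52 members in edgeR, and for 1 member, Npm3, in DESeq2 (adjusted p = 0.0443). Among the 9223 genes tested, 1.82% were called higher and 0.249% lower. The members' median interaction was -0.14 on the log2 scale, against 0.04 over all genes, and 38 of 52 were below 0. At an unadjusted p under 0.05 were 5 members, or 9.62%, where 12.2% of all genes reached it. These 5, named after their values were seen, were Npm3 (0.65 ± 0.20, adjusted p = 0.0910, edgeR), Nop58 (-0.42 ± 0.15), Lyar (-0.41 ± 0.16), Noc3l (-0.44 ± 0.20) and Nip7 (-0.36 ± 0.17). In Npm3 the unstimulated anti-LAIR-1 libraries were low (50.7, 39.8 and 27.0 CPM, against 52.2, 47.3 and 61.9 CPM with isotype), and the stimulated ones were high. For the 12 members called in stimulated cells, a difference from the effect in unstimulated cells was not shown.

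Beyond the 52, a list of 91 other genes of the pathway was examined, all of them in the table (8 under an older symbol) and 90 of them tested. With anti-CD3 and isotype, 84 rose, 4 fell and 2 did not pass, and the median log2 fold change was 1.48. Of all genes tested, 35.3% were called higher and 36.1% lower. With anti-LAIR-1 present, 82 rose, 4 fell and 4 did not pass, with a median of 1.51. Here 36.4% of all genes were called higher and 36.3% lower. The 3 highest with isotype were Naf1, an assembly factor of H/ACA particles (3.26 ± 0.22), Bysl, a 40S factor (2.99 ± 0.16), and Mki67ip, the older symbol of the 60S factor Nifk (2.86 ± 0.12). Assembly factors of snoRNPs rose in 7 of 7 genes (median 2.25), 40S factors in 31 of 32 (1.62), 60S factors in 30 of 33 (1.45), exosome and 5′ end processing factors in 12 of 13 (1.24), and initiation factors of RNA polymerase I in 4 of 5 tested (1.11). The 4 that fell were Taf1b, a subunit of the RNA polymerase I initiation complex (-0.81 ± 0.25), Gltscr2, the older symbol of Nop53 (-0.72 ± 0.10), the nuclease Xrn2 (-0.36 ± 0.09) and the 60S factor Nsa2 (-0.23 ± 0.08). In the anti-LAIR-1 libraries these 4 fell by 0.61, 0.72, 0.41 and 0.18 on the log2 scale.

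In stimulated cells, anti-LAIR-1 lowered 4 of the 90 other genes and raised 0. The median was -0.12, and 77 of 90 were below 0, where 49.4% of all genes were. The 4 lowered genes were Mphosph10 of the U3 snoRNP (-0.48 ± 0.10), Taf1d of the RNA polymerase I initiation complex (-0.40 ± 0.09), Mki67ip (-0.35 ± 0.09) and Cebpz (-0.33 ± 0.09). These were 4.44% of the genes tested, beside 1.86% of all genes and 23.1% of the members. A difference between the lists was not tested. Members and lists were chosen with earlier results of these data known, so these shares cannot decide it. In the interaction, Mki67ip passed (-0.70 ± 0.18, adjusted p = 0.0363, edgeR). Without anti-CD3, 0 of the 89 other genes tested differed in edgeR or DESeq2. An unadjusted p under 0.05 was reached by 3 of the 89, where 4.38% of all genes reached it.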

How the data were processed

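Raw read counts per gene symbol were deposited for 12 libraries. The authors used CEL-seq and a NextSeq 500 instrument, mapped the second read to the mm10 transcriptome with BWA MEM, discarded multi-mapping reads and counted with MapAndGo; the deposited counts are not normalised, and collapsing of molecular identifiers was not given in the sources used here. Members and lists were chosen with earlier results of these data known. Groups came from the labels. Fits used edgeR 4.0.16 (R 4.3.3) with TMM scaling, low counts removed by filterByExpr and the quasi-likelihood F-test; p-values were adjusted by Benjamini and Hochberg's method across every gene tested (threshold 0.05), on the 2 groups compared, or all 12 libraries for the interaction. The study's methods name DESeq2, which was run here in version 1.42.0 as an alternative; the study's filter to protein-coding genes after testing was not applied. Alternatives were other scalings, no filter on low counts, thinned counts, a replicate block, all 12 libraries in the fit, genes left out and each library left out. Values in every library are given for the 5 largest and 5 smallest responses, members called with anti-LAIR-1, and role examples; other values named are the highest and lowest of their list or were chosen after they were seen. The scripts were tested on simulated counts. Pairing comes from the animals: deviations of same-mouse libraries correlated with a mean r of 0.0429 (-0.0123 to 0.0903), and of different mice with -0.0215. Variance between replicates was 3.61 to 5.34 times sampling noise, so no library was a duplicate. Protein sequences were not used here.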

Additional observations from a re-analysis of the deposited data

How the results depend on the processing

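Both responses to anti-CD3 stayed at 52 of 52 members under all 16 alternatives of each. The median log2 fold change moved by more than 1 SD of the 3 mice's medians (0.100 and 0.0996) under some scalings: with isotype it was 2.15 with upper-quartile scaling, and with anti-LAIR-1 it was 2.06 with upper-quartile scaling and 2.16 with library totals only. Without a filter on low counts it was 2.42 and 2.36, and with thinned counts 2.30 and 2.19. The upper quartile shifted the median of all genes by -0.18 and -0.21, and library totals by -0.11 with anti-LAIR-1. Relative to all genes the members' median was 2.36 and 2.31 higher in the main analysis and with the upper quartile.

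For anti-LAIR-1 with anti-CD3, the 12 lower members became 7 with all 12 libraries in the fit, and 6 to 10 with a library left out. The count of 6 came without the isotype library of mouse 2, and 5 of these 6 were among the 12. With the mouse as a replicate block edgeR called 12 and DESeq2 9, and without the block DESeq2 called 15. The replicate block changed no call of the other comparisons except that DESeq2 kept 1 interaction call. Nop2 ranged from -0.18 to 0.00793 and Nop10 from -0.30 to 0.0116 with a library left out. Without anti-CD3, the median ranged from -0.1052 to -0.0307. In the interaction the count was 0 or 1 with a library left out, with a median from -0.1926 to -0.0405, and it was 1 without the unstimulated anti-LAIR-1 library of mouse 1, without a filter on low counts, in DESeq2 and in DESeq2 with the replicate block. Causes of these changes were not tested. The median SE of an anti-LAIR-1 effect was 0.16 in unstimulated and 0.08 in stimulated cells; the part of depth in this was not tested.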
